A study of Mus musculus with 3 samples.

Results

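The genes described here were Chst11, St18, Ksr2, Emp1, Il7r, Adam8, Xylt1, Tmem267, Flrt2 and Lhfpl2, 10 of the 32285 genes in the deposited count matrices. They were chosen from the readout itself: each stood among the leading genes of a macrophage group in the STZ-HFHC livers and lies outside the usual marker set of scar-associated, or lipid-associated, macrophages. Their levels in those nuclei, and any contrast made in the same nuclei, are therefore given as a description with no test. The ND group held 1 mouse, so no p-value was computed for any comparison.

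The study used single-nucleus RNA sequencing (sNuc-Seq) of frozen mouse liver. The ND group was 1 male C57BL/6 J mouse on a normal diet. The STZ-HFHC group was 2 mice that were given 0.2 mg streptozocin (STZ), a toxin of the insulin-producing islet cells, under the skin at 3 days of age and a high-fat high-cholesterol (HFHC) diet from 4 weeks of age, a model of steatohepatitis with liver fibrosis. The labels also carry a code that begins with 3rd for the ND library and with 2nd for both STZ-HFHC libraries, so that a library batch, if the code marks one, and the diet group cannot be told apart.

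Resident macrophages of the liver are the Kupffer cells, which sit in the sinusoids and carry Clec4f, Vsig4 and Timd4. In steatohepatitis, monocytes enter the liver and mature into macrophages that gather around lipid-laden hepatocytes and in fibrous septa. These cells, known as lipid-associated macrophages (LAMs) or scar-associated macrophages, are recognised by Trem2, Cd9, Spp1 and Gpnmb, genes of lipid handling, lysosomes and matrix. The genes described here belong to other families. Chst11 and Xylt1 encode enzymes of chondroitin sulfate synthesis. Ksr2 and St18 encode a signalling scaffold and a transcription factor, Il7r a cytokine receptor chain, and Adam8 a membrane protease. Emp1, Flrt2, Lhfpl2 and Tmem267 encode other membrane proteins.

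After filtering, 28336 of 30989 barcodes were kept (8494 from ND, 8921 from STZ-HFHC 1 and 10921 from STZ-HFHC 2), at a median of 4068, 3015 and 4027 unique molecular identifiers (UMIs, each a count of 1 captured RNA molecule) per nucleus. The libraries shared 29 to 32 barcodes pairwise. Levels are given as CPM, the UMIs of a gene per 1000000 UMIs of the nuclei summed in a library, with the 95% exact Poisson interval where a comparison turns on it. These intervals, and those of shares, cover counting error only. Clusters were named from marker lists, and the 10 genes were left out of the clustering. Macrophage-like nuclei numbered 231 for the ND mouse, 1310 for STZ-HFHC 1 and 882 for STZ-HFHC 2.

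The ND macrophage-like nuclei stood apart from those of the STZ-HFHC mice. Of the 231, 216 came from a cluster led by Il1b, Slit1 and Clec4f, whereas 1310 of 1310 and 880 of 882 STZ-HFHC macrophage-like nuclei came from another cluster that carried 13 of the 18 macrophage markers. The 12 hepatocyte markers, none of them at 0 in any of the 3 libraries, summed to 17398 CPM in the ND macrophage-like nuclei, beside 8845 and 12532 CPM in the STZ-HFHC ones and 18910 CPM in ND hepatocyte-like nuclei. The 18 macrophage markers summed to 1634 CPM in ND and to 2830 and 2263 CPM in STZ-HFHC. When the myeloid nuclei were subclustered, 229 of the 269 ND ones fell into a subcluster of 230 nuclei led by Gm15622, Gm15401 and Serpina1e, in which 7 of the 12 hepatocyte markers stood higher and which was named hepatocyte-like by the same rule. Of these 230 nuclei, 225 were macrophage-like. Nearly all of the 231 ND nuclei in the diet comparison thus carried both names. The ND macrophage-like nuclei thus carried more hepatocyte RNA and less macrophage-marker RNA per UMI, and the part of this in the diet comparison below was not tested.

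The scar-associated label is described by its own markers among the myeloid nuclei, that is the macrophage-like and monocyte-like nuclei (269 from ND, 1971 from STZ-HFHC 1 and 1362 from STZ-HFHC 2). Subclustering gave 1 subcluster in which 15 of the 18 LAM markers stood higher, here called LAM-like, with 3, 469 and 256 nuclei, which is 1.12%, 23.8% and 18.8% of the myeloid nuclei. Trem2 stood at 36.0 CPM in LAM-like nuclei against 13 CPM in the other myeloid nuclei of STZ-HFHC 1, and at 33.9 against 7.67 CPM in STZ-HFHC 2. Cd9 stood at 258 against 65.3 CPM and at 136 against 37.1 CPM. Spp1 stood at 108 against 11.4 CPM and at 27.9 against 3.83 CPM. All of these stood higher in the LAM-like nuclei of both mice. They are on the list that named the subcluster, so they are no separate check of it. Of the 18 LAM markers, 13 were at least 2-fold higher in both mice, and Cd36, Cd63, Ctsl, Plin2 and Tfec were not. Ctsl was lower in STZ-HFHC 2, at 61.8 against 81.2 CPM. Among the myeloid subclusters the data go against the label for 2 genes: Ksr2 stood highest in Kupffer-like nuclei and Xylt1 in a monocyte-like subcluster. Adam8 was not resolved from a dendritic-like subcluster, and no order against such a subcluster is read for Il7r. Among the cell classes, Il7r stood highest in T or NK-like, Flrt2 in mesothelial-like and Lhfpl2 in endothelial-like nuclei of both mice. All of these are described below.

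The letters upstream of 4 of the genes are shown because they lie before a RefSeq start site of Chst11, which had no UMI in ND macrophage-like nuclei, of the genes with a motif match (Emp1, Flrt2) and of the shortest of the 10 genes (Adam8). They were read from RefSeq promoter windows on GRCm38.p6 (mm10), 5′ to 3′ on the strand of the gene. RefSeq windows were matched for 8 of the 10 genes, in 10 windows, and not for St18 and Xylt1. Chst11 is chr10:82985247-82985496 on the plus strand, Emp1 is chr6:135362771-135362903 on the plus strand, ends 27 bases before the RefSeq start site and lies inside the GENCODE span of the gene, which starts 386 bases before that site, Adam8 is chr7:139992563-139992812 on the minus strand, and Flrt2 is chr12:95691976-95692225 on the plus strand. Capitals mark an AP-1 motif in Emp1 and an E-box in Flrt2.
Chst11: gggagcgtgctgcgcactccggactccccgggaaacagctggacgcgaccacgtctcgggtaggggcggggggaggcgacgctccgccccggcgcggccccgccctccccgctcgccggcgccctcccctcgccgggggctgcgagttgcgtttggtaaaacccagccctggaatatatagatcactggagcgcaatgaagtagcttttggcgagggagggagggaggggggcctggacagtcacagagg
Emp1: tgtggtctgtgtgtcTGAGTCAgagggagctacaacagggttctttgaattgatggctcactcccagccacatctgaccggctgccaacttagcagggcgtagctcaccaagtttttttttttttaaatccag
Adam8: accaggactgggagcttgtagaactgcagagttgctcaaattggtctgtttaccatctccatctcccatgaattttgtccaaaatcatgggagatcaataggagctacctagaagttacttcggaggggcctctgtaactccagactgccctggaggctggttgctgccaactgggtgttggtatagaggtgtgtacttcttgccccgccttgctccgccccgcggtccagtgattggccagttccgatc
Flrt2: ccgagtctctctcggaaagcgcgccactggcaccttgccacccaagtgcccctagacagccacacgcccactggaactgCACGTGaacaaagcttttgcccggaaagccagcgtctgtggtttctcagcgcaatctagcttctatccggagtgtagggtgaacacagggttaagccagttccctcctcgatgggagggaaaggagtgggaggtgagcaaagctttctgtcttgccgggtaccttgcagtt

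The motifs were searched on both strands in 32851 promoter windows of 27025 genes. The AP-1 motif TGANTCA was found in 1 of the 10 windows of these genes, that of Emp1, and in 6.75% of all windows. In Emp1 it lay 145 bases before the start (TGAGTCA) and again 25 bases before it (TGATTCA, outside the stretch shown). The E-box CACGTG was found in the Flrt2 window, 171 bases before the start, and in 6.02% of all windows. The PU.1 motif GAGGAAGT (2.44% of all windows), the CRE TGACGTCA (1.55%) and the TATA box TATAAA (12.4%) were found in none of the 10. These matches describe letters in the windows and say nothing of binding.

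The first comparison was between STZ-HFHC and ND macrophage-like nuclei. A gene was called higher where the log2 ratio of STZ-HFHC to ND was at least 2 in each mouse, with 0.5 UMI added to each count and at least 50 UMIs in all, and 9 of the 10 genes met this size. With genes at 0 UMIs in ND set to the limit of 3 counts, 7 of the 10 met it. Emp1 and Adam8 dropped out, since their ratios to that limit in STZ-HFHC 2 are under 4-fold. Il7r stayed in at 4.02 times the limit in STZ-HFHC 2. The exact lower bound of its ratio to ND there, which takes in the counting error of both counts, is 3.09 and so under 4-fold. Over all 10177 genes measured, 458 met the size with 0.5 UMI added, or 4.5%, and 381 with the limit of 3 counts. The genes were chosen for high levels in these nuclei, so nothing is read from their count beside that percentage. The median of their log2 differences, each averaged over the 2 mice, was 4.55, or 2.99 with genes at 0 in ND set to the limit of 3 counts, against 0.17 over all genes in both cases. The LAM markers had 12 of 18 past the same size, with a median of 3.39 (10 of 18 and 2.62 with the limit of 3 counts), among them the matrix protease Mmp12 (2.11, 457 and 155 CPM), Gpnmb (1.05, 620 and 331 CPM) and Atp6v0d2, a subunit of the lysosomal proton pump (0 UMIs in ND, 280 and 128 CPM), and the Kupffer markers 0 of 10, with a median of 0.54.

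Both chondroitin sulfate enzymes among the 10 genes, Chst11 and Xylt1, stood higher in the STZ-HFHC mice. Chst11 (ENSMUSG00000034612, chr10:82985498-83195900 on GRCm38), which transfers sulfate to position 4 of chondroitin, had 0 UMIs in the ND macrophage-like nuclei, which allows up to 3.16 CPM. It stood at 347 CPM (328 to 366, from 1265 UMIs) in STZ-HFHC 1 and at 88.6 CPM (77.7 to 101, from 237 UMIs) in STZ-HFHC 2. These levels are 110 and 28.0 times the ND limit, and the exact lower bounds of the ratios to ND are 89.0 and 22.6. Both STZ-HFHC mice were above ND, and they also differed from each other beyond counting error. Xylt1 (ENSMUSG00000030657, chr7:117380979-117673580), the xylosyltransferase that starts the sugar linker of a proteoglycan, stood at 6.33 CPM (6 UMIs) in ND and at 119 and 80.8 CPM in the STZ-HFHC mice. The ratios to ND were 18.8 (8.59 to 51.6) and 12.8 (5.77 to 35.2).

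Of the signalling and transcription genes, St18 was not seen in ND macrophage-like nuclei and Ksr2 was already present there. St18 (ENSMUSG00000033740, chr1:6487231-6860940), a zinc-finger transcription factor of the MYT family, had 0 UMIs in ND. It stood at 217 and 64.7 CPM in the STZ-HFHC mice, 68.6 and 20.4 times the ND limit of 3 counts. The exact lower bounds of its ratios to ND were 55.7 and 16.4. Ksr2 (ENSMUSG00000061578, chr5:117414000-117775003), a scaffold of the RAF-MEK-ERK kinases, stood at 100 CPM (81.1 to 123, from 95 UMIs) in ND and at 723 and 474 CPM in the STZ-HFHC mice. Its ratios were 7.21 (5.88 to 8.95) and 4.73 (3.84 to 5.89). Ksr2 was thus present in the ND macrophage-like nuclei, and of the genes past the size limit it was the nearest to it, with a smaller log2 difference of 2.24.

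The receptor chain and the protease had low levels and no UMI in ND macrophage-like nuclei. Il7r (ENSMUSG00000003882, chr15:9505788-9530176) is the alpha chain of the interleukin-7 receptor and also of the TSLP receptor. It stood at 26.6 CPM (97 UMIs) and 12.7 CPM (34 UMIs) in the STZ-HFHC mice, 8.40 and 4.02 times the ND limit. The exact lower bounds of its ratios to ND were 6.70 and 3.09. Adam8 (ENSMUSG00000025473, chr7:139978932-139992562), a metalloprotease of the leukocyte membrane, stood at 27.4 CPM (100 UMIs) and 12.3 CPM (33 UMIs), 8.66 and 3.90 times the ND limit. The exact lower bounds of its ratios to ND were 6.92 and 3.00. For both genes the STZ-HFHC mice lay above the ND limit of 3.16 CPM.

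The other membrane proteins were low in ND macrophage-like nuclei as well. Emp1 (ENSMUSG00000030208, chr6:135362545-135383173), a small protein of the PMP22 family, had 0 UMIs in ND. It stood at 28.5 CPM (23.3 to 34.5) in STZ-HFHC 1 and 7.85 CPM (4.86 to 12, from 21 UMIs) in STZ-HFHC 2. These levels are 9.01 and 2.48 times the ND limit of 3 counts, and the exact lower bounds of the ratios to ND are 7.20 and 1.85. Flrt2 (ENSMUSG00000047414, chr12:95692226-95785215), an adhesion protein that binds UNC5 receptors and latrophilins, stood at 2.11 CPM (2 UMIs), 63.9 CPM and 38.9 CPM, with ratios of 30.3 (8.29 to 251) and 18.4 (4.98 to 154). Tmem267 (ENSMUSG00000074634, chr13:119488039-119611059), a transmembrane protein of little-known role, stood at 4.22 CPM (4 UMIs), 75.1 CPM and 35.2 CPM, with ratios of 17.8 (6.87 to 65.8) and 8.33 (3.15 to 31.2). The intervals of Flrt2 and Tmem267 are wide because the ND counts are so few. Lhfpl2 (ENSMUSG00000045312, chr13:94057796-94195409), a 4-span membrane protein, stood at 6.33 CPM (6 UMIs), 44.1 CPM and 21.3 CPM. Its ratios were 6.97 (3.13 to 19.3) and 3.37 (1.46 to 9.56), and with a smaller log2 difference of 1.65 it was the gene just outside the size limit.

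**Figure D1:**
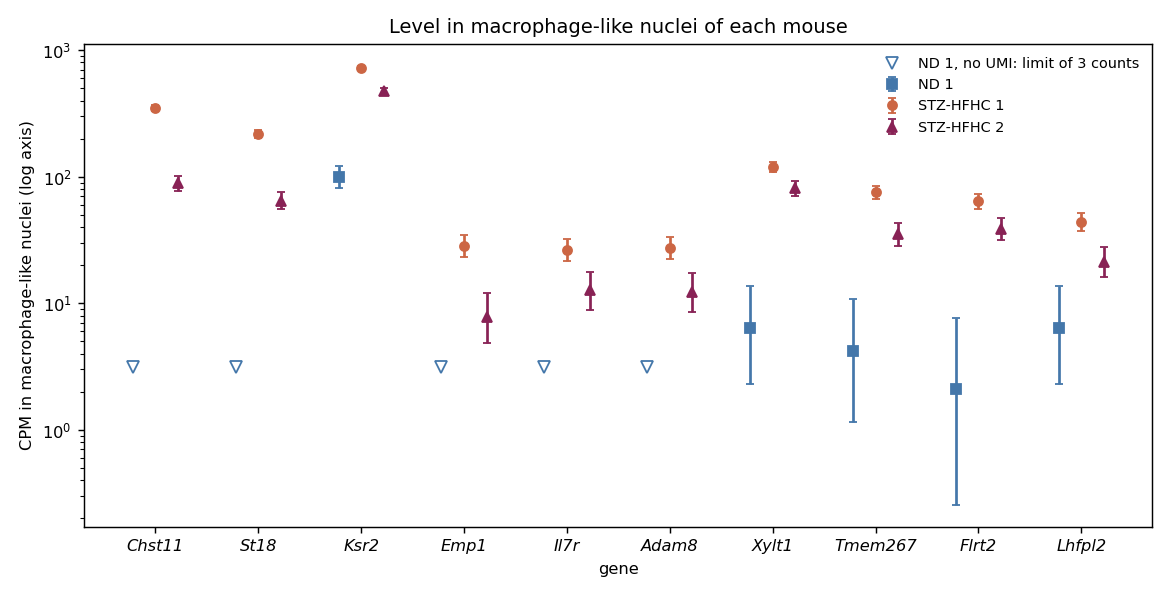
Level of each gene in the macrophage-like nuclei of each mouse, in CPM on a log axis, with 95% exact Poisson intervals. Open triangles are the limit of 3 counts (3.16 CPM) for genes with no UMI in the ND mouse. Both STZ-HFHC mice lie above ND for each of the 10 genes, and STZ-HFHC 1 lies above STZ-HFHC 2.

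Shares of nuclei with at least 1 UMI showed the same order when each nucleus was thinned to 1000 UMIs. Chst11 was detected in 13.3% and 6.85% of the thinned macrophage-like nuclei of STZ-HFHC 1 and 2 (20.8% and 11.1% before thinning) and in 0% of the ND ones, beside 0.519% and 0.684% of thinned hepatocyte-like nuclei. Ksr2 was detected in 15%, 50.4% and 38.1% of thinned macrophage-like nuclei of ND, STZ-HFHC 1 and STZ-HFHC 2 (30.7%, 67.5% and 56.3% before thinning), beside 0.307%, 2.21% and 1.63% of thinned hepatocyte-like nuclei. In the STZ-HFHC mice both genes were thus found in macrophage-like nuclei well above their share in hepatocyte-like nuclei of the same library. In ND this held for Ksr2 and not for Chst11. Median depth before thinning was 2305, 1847.5 and 1829 UMIs in macrophage-like and 4023, 7452 and 6488 UMIs in hepatocyte-like nuclei. Emp1 was found in 2.81% and 0.996% of thinned STZ-HFHC macrophage-like nuclei (4.43% and 1.81% before thinning) beside 0.0865% and 0.114% of hepatocyte-like ones. The intervals of the macrophage-like and hepatocyte-like shares were apart in both STZ-HFHC mice for each gene except Tmem267 in STZ-HFHC 2, at 1.62% and 0.684%. The genes were chosen for high levels in macrophage nuclei, and this was not counted over all genes, so nothing is read from it.

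The 10 genes were also counted in hepatocyte-like nuclei, where Chst11 stood at 0.348 CPM in ND and at 4.10 and 2.98 CPM in the STZ-HFHC mice, and the LAM gene Gpnmb at 0.0774, 20.3 and 6.78 CPM. Ksr2 stood there at 3.41, 16.5 and 13.2 CPM, and Tmem267 at 4.61, 8.26 and 6.47 CPM. These levels were thus also higher in the STZ-HFHC mice, and for Tmem267 the ND level in hepatocyte-like nuclei was as high as the 4.22 CPM in ND macrophage-like nuclei. The part of RNA from other cells in the levels of macrophage-like nuclei was not tested.

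The diet comparison depends on which ND nuclei are counted as macrophage-like. Without upper limits on genes and mitochondrial reads, clustering left 19 ND macrophage-like nuclei (31242 UMIs). There 2 of the 10 genes, Chst11 and Tmem267, passed the size limit with 0.5 UMI added, both with 0 UMIs in ND. Chst11 stood at 316 and 77.5 CPM and Tmem267 at 91.2 and 84.0 CPM in the STZ-HFHC mice. The limit of 3 counts among so few ND UMIs lies above both Tmem267 levels and the Chst11 level of STZ-HFHC 2. With that limit neither gene would pass. At a clustering resolution of 0.5, with 57 ND nuclei, 4 passed, and those ND nuclei held 2 Chst11 and 3 St18 UMIs. When nuclei were chosen by at least 2 macrophage markers without clustering, 5 passed. That choice took in 18096 of the 28336 kept nuclei, against 2423 macrophage-like nuclei by clustering. Most of the 18096 were thus not macrophage-like by clustering. No share over all genes is given for this setting. The genes were chosen for high levels in macrophage nuclei, so nothing is read from these counts.

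The second comparison, within the STZ-HFHC livers, was between LAM-like nuclei and the other myeloid nuclei. Of the 10 genes, 9 were over 2-fold higher in the LAM-like nuclei of both mice, and Ksr2 was not. Over all 10695 genes measured, 232, or 2.17%, met that size in this direction. Since the genes were taken from this contrast, nothing is read from their count beside it. The median log2 difference was 2.44 for the 10 genes and −0.01 over all genes. The LAM markers had 13 of 18 past the size, with a median of 1.54, among them Mmp12 (1025 against 215 CPM and 439 against 82.8 CPM), Gpnmb (1497 against 293 CPM and 1188 against 156 CPM) and Atp6v0d2 (557 against 135 CPM and 431 against 56.9 CPM). The Kupffer markers had 5 of 10 lower by the same size, Clec4f, Vsig4, Timd4, Marco and Cd163, with a median of −1.13.

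Chst11 and Xylt1 were both higher in LAM-like nuclei. Chst11 stood at 861 CPM in LAM-like against 159 CPM in the other myeloid nuclei of STZ-HFHC 1, and at 425 against 51.1 CPM in STZ-HFHC 2, ratios of 5.40 and 8.31. Xylt1 stood at 385 against 119 CPM and at 323 against 107 CPM, ratios of 3.24 and 3.02. The order across single subclusters differed between the enzymes. Chst11 was next highest in Kupffer-like nuclei of STZ-HFHC 1 (269 CPM) and in a dendritic-like subcluster of STZ-HFHC 2 (93.1 CPM, overlapping 78.6 CPM in Kupffer-like nuclei), and was low in the monocyte-like subcluster (26.9 and 16.1 CPM). Xylt1 was highest in that monocyte-like subcluster, at 499 and 556 CPM, where 49.8% and 46.5% of nuclei held a UMI of it, and was low in Kupffer-like nuclei (88.6 and 63.8 CPM). So the enzyme that starts the chain stood highest in the monocyte-like nuclei, and the 4-O-sulfotransferase in the LAM-like nuclei.

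St18 was higher in LAM-like nuclei and Ksr2 was nearly level. St18 stood at 400 against 136 CPM in STZ-HFHC 1 and at 213 against 46.3 CPM in STZ-HFHC 2, ratios of 2.93 and 4.6. In STZ-HFHC 2 the cycling Kupffer-like subcluster, at 206 CPM from 12 UMIs, did not differ from the LAM-like nuclei beyond counting error. Ksr2 stood at 622 against 547 CPM (ratio 1.14, 1.04 to 1.24) and at 443 against 368 CPM (ratio 1.2, 1.04 to 1.39). Ksr2 instead stood highest in Kupffer-like nuclei of STZ-HFHC 1, at 1038 CPM, with 71.0% of nuclei holding a UMI. In STZ-HFHC 2 the Kupffer-like nuclei were at 788 CPM and a small cycling Kupffer-like subcluster (24 nuclei) at 772 CPM, which do not differ beyond counting error. The monocyte-like subcluster was low, at 63.6 and 56.4 CPM. Ksr2 was thus spread over Kupffer-like and LAM-like nuclei and low in the monocyte-like ones. Its difference depended on where the LAM-like subcluster was drawn. The mean log2 difference over the mice was 0.23 here, 1.36 when the nuclei with the highest doublet scores were left out (507 LAM-like nuclei), 1.33 when the 10 genes and the known LAM genes were kept in the clustering (452 nuclei) and 1.83 with no upper limits on nuclei (539 nuclei), so Ksr2 passed under these 3 settings. Xylt1 went the other way, from 1.65 to 0.72 and 0.88 under the first 2 of these settings, in which it no longer passed, and to 1.5 under the last, in which it did.

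Il7r and Adam8 were higher in LAM-like nuclei at low levels. Il7r stood at 90.1 against 14.0 CPM in STZ-HFHC 1 and at 53.8 against 8.95 CPM in STZ-HFHC 2, ratios of 6.45 and 6.02. A dendritic-like subcluster was next, at 60.6 and 33.9 CPM, and Kupffer-like nuclei were at 13.7 and 8.32 CPM. The 2 dendritic-like subclusters held only 46 and 130 nuclei of STZ-HFHC 1 and 56 and 132 of STZ-HFHC 2. The LAM-like level of STZ-HFHC 2 rests on 27 UMIs. No order of the dendritic-like and LAM-like nuclei is therefore read for Il7r. Because T cells carry Il7r, the T and NK marker list was summed: it stood at 141 and 167 CPM in LAM-like nuclei, beside 2943 and 1921 CPM in T or NK-like nuclei and 143 and 212 CPM in Kupffer-like nuclei. The list was thus at a like sum in LAM-like and Kupffer-like nuclei, and its part in the Il7r level was not tested. Adam8 stood at 59.7 against 15.8 CPM and at 41.9 against 8.95 CPM, ratios of 3.79 and 4.68. A dendritic-like subcluster was at 63.5 and 50.3 CPM, but from 6 UMIs in each mouse, so the order of it and the LAM-like nuclei is not resolved.

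Of the other membrane proteins, Tmem267, Flrt2 and Lhfpl2 were higher in both mice and Emp1 rested on STZ-HFHC 1. Tmem267 stood at 258 against 20.1 CPM and at 89.7 against 21.7 CPM, ratios of 12.8 and 4.13. Flrt2 stood at 200 against 35.1 CPM and at 138 against 23.3 CPM, ratios of 5.71 and 5.90. Lhfpl2 stood at 139 against 14.5 CPM and at 79.8 against 16 CPM, ratios of 9.62 and 4.99. For each of these 3 genes the LAM-like level was several times that of Kupffer-like nuclei, which held Tmem267 at 37.1 and 22.2 CPM, Flrt2 at 53.7 and 35.1 CPM and Lhfpl2 at 17.7 and 14.8 CPM. Flrt2 was at 172 CPM in the cycling Kupffer-like nuclei of STZ-HFHC 2, from 10 UMIs. Emp1 stood at 97.7 against 8.13 CPM in STZ-HFHC 1 (ratio 12, from 103 LAM-like UMIs) but at 12 against 5.75 CPM in STZ-HFHC 2 (ratio 2.08, 0.676 to 5.47, from 6 UMIs). Emp1, at a smaller log2 difference of 1.13, was the gene just inside the limit of 1, and Ksr2, at 0.19, the one outside it.

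**Figure D2:**
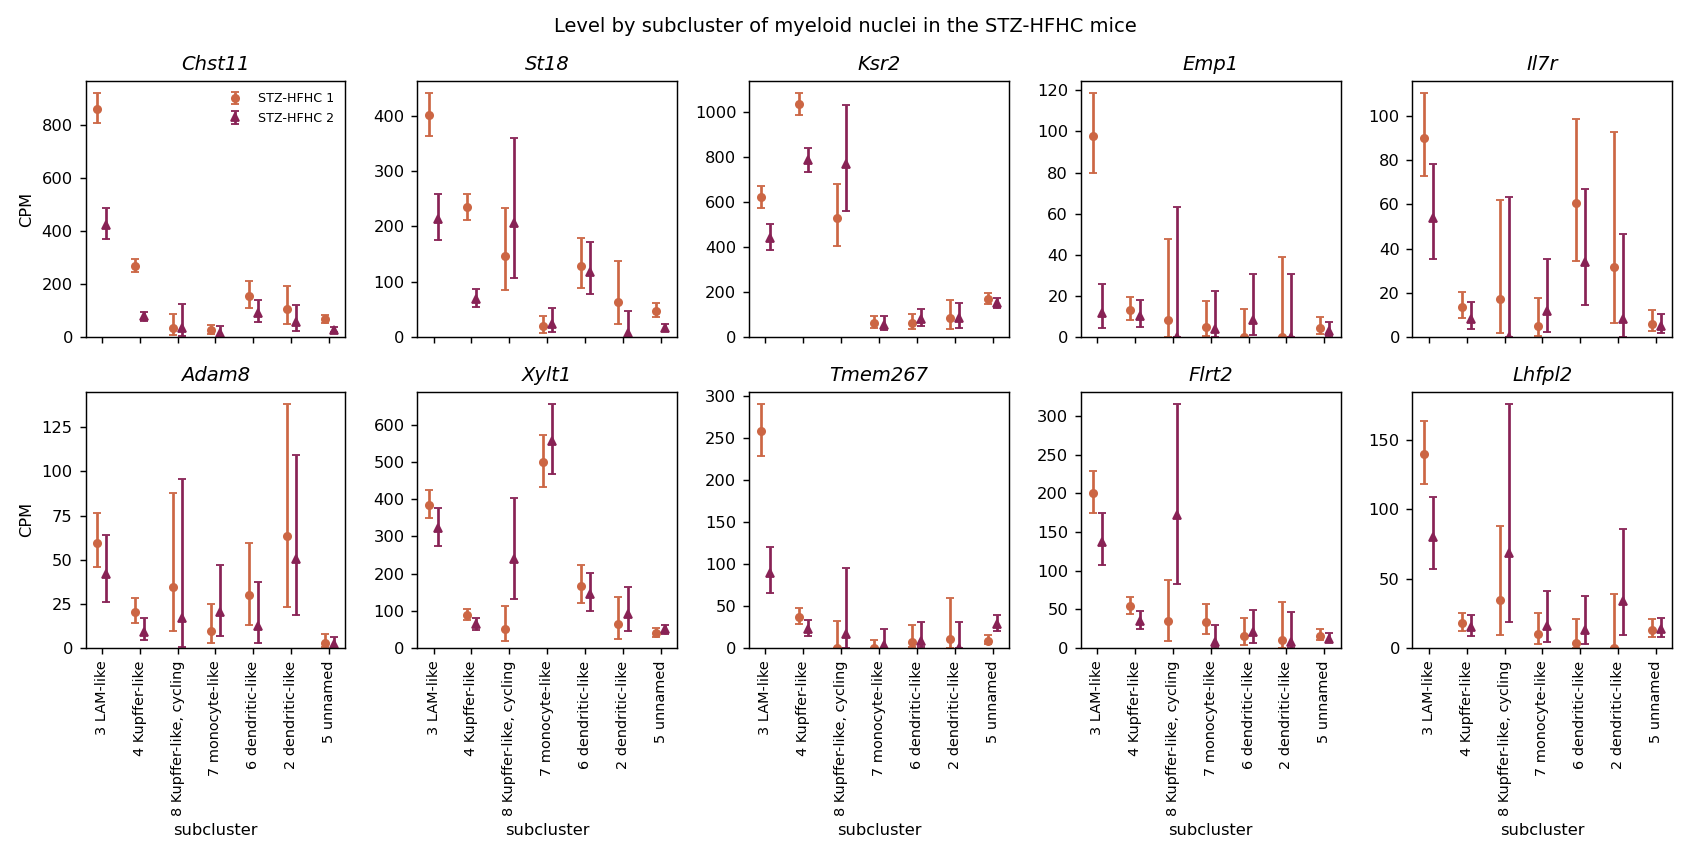
Level of each gene by myeloid subcluster in the 2 STZ-HFHC mice, in CPM with 95% exact Poisson intervals. Chst11, Tmem267, Flrt2 and Lhfpl2 are higher in the LAM-like than in the Kupffer-like subcluster in both mice, whereas Ksr2 is highest in Kupffer-like nuclei (1038 and 788 CPM) and Xylt1 in the monocyte-like subcluster (499 and 556 CPM).

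Values that moved with the LAM-like subcluster are given beside these. Its nuclei had a median of 1822 and 1741.5 UMIs, and Kupffer-like nuclei 1653 and 1579 UMIs. The hepatocyte markers summed to 5945 and 9475 CPM in it, below the 8845 and 12532 CPM of all macrophage-like nuclei. The LAM markers summed to 8877 and 5820 CPM, against 4962 and 3222 CPM in Kupffer-like nuclei, and the Kupffer markers to 689 and 383 CPM, against 2560 and 1807 CPM. The LAM-like nuclei thus were LAM-marker high and Kupffer-marker low, and 326 of them came from the macrophage-like and 402 from the monocyte-like nuclei. A further subcluster of 217 and 246 nuclei with no name, of which 62.6% had doublet scores among the highest 8%, held Tmem267 at 8.46 and 28.9 CPM.

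The third comparison set the macrophage-like nuclei beside the other cell classes of the liver. Ksr2 and Emp1 were the 2 of the 10 genes whose highest level was in macrophage-like nuclei in both STZ-HFHC mice. Over all 15279 genes measured this held for 447, or 2.93%. The members were chosen in these nuclei, and nothing is read from the count. For Ksr2 the next class was monocyte-like, at 128 and 111 CPM beside 723 and 474 CPM, with intervals apart, and in the ND mouse endothelial-like nuclei at 13.5 CPM followed the 100 CPM of macrophage-like nuclei. For Emp1 the interval overlapped that of the next class in both mice, monocyte-like at 23.1 CPM in STZ-HFHC 1 (15 of its 31 UMIs from 1 nucleus) and stellate or fibroblast-like at 4.17 CPM in STZ-HFHC 2. Ksr2 was therefore the 1 gene of the 10 whose top class was resolved as macrophage-like in both mice. The count was 5 without the 8% of nuclei with the highest doublet scores and at resolution 0.5, 7 with the 10 genes and the known LAM genes kept in the clustering, and 5 without STZ-HFHC 2 (Chst11, St18 and Adam8 added).

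Chst11, St18 and Adam8 were found in both macrophage-like and monocyte-like nuclei. Of the LAM-like nuclei, 402 of 728 lie in the monocyte-like class, whereas the monocyte-like subcluster itself held Chst11 at 26.9 and 16.1 CPM and St18 at 19.6 and 24.2 CPM, so the levels of the monocyte-like class below include LAM-like nuclei. Chst11 in STZ-HFHC 1 was highest in macrophage-like nuclei (347 CPM), followed by monocyte-like (201 CPM) and T or NK-like nuclei (186 CPM), the latter pair not differing beyond counting error. In STZ-HFHC 2 it was highest in monocyte-like nuclei (142 CPM), followed by macrophage-like (88.6 CPM) and T or NK-like nuclei (74.6 CPM), again with the latter pair overlapping. The order of macrophage-like and monocyte-like nuclei thus turned between the mice. In the ND mouse Chst11 was seen in T or NK-like nuclei at 14.0 CPM (11 UMIs) and in monocyte-like nuclei at 29.6 CPM (2 UMIs). In T or NK-like nuclei of STZ-HFHC 1, 142 Chst11 UMIs stood beside 80 Gpnmb UMIs, and in macrophage-like nuclei 1265 stood beside 2262. Of the 142 Chst11 UMIs, 27 came from 1 nucleus, as did 53 of the 270 in monocyte-like nuclei of that mouse. The part of RNA from other cells in these levels was not tested. St18 stood at 217 CPM in macrophage-like and 125 CPM in monocyte-like nuclei of STZ-HFHC 1, and at 64.7 and 82.6 CPM, which overlap, in STZ-HFHC 2. In the ND mouse St18 stood at 44.4 CPM in monocyte-like nuclei, of which there were only 38. Adam8 stood at 27.4 and 18.6 CPM, and at 12.3 and 16.7 CPM, with overlapping intervals in both mice.

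Il7r, Xylt1, Flrt2 and Lhfpl2 had their highest level in another class. Il7r was highest in T or NK-like nuclei, at 39.4 CPM in ND and at 165 and 106 CPM in the STZ-HFHC mice, from 31, 126 and 101 UMIs. Xylt1 was high in B-like nuclei (116, 344 and 182 CPM) and monocyte-like nuclei (133.1, 327 and 294 CPM), above macrophage-like nuclei in each mouse. Both are genes of lymphocytes as well as of myeloid cells, and the B-cell marker list summed to 4119 and 2209 CPM in the STZ-HFHC B-like nuclei. Flrt2 was highest in mesothelial-like nuclei, the lining of the liver surface, at 180, 664 and 360 CPM from 34, 58 and 40 nuclei, where the mesothelial markers summed to 4940 and 2746 CPM in the STZ-HFHC mice. Lhfpl2 was highest in endothelial-like nuclei, at 50.2, 134 and 75.8 CPM, where the endothelial markers summed to 5776 and 3808 CPM in the STZ-HFHC mice, with stellate or fibroblast-like nuclei at 37.6, 65.2 and 47.4 CPM. These 4 genes were thus also present in the ND liver, in other classes than the macrophage-like nuclei.

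Single nuclei decided the order for Tmem267. It stood at 119 CPM in stellate or fibroblast-like nuclei of STZ-HFHC 1, beside 5.16 CPM in ND and 11.0 CPM in STZ-HFHC 2, but 252 of those 272 UMIs came from 1 nucleus, and the level was 8.77 CPM without it. In monocyte-like nuclei of STZ-HFHC 1 it stood at 57.4 CPM, with 43 of 77 UMIs from 1 nucleus, and at 25.4 CPM without it. Macrophage-like nuclei of STZ-HFHC 1 held 274 UMIs, 50.7% of them in 5 nuclei, and stood at 75.1 CPM, or at 62.5 CPM without the nucleus with most. With the top nucleus of each class left out, macrophage-like nuclei were thus the highest of these 3 classes in that mouse.

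**Figure D3:**
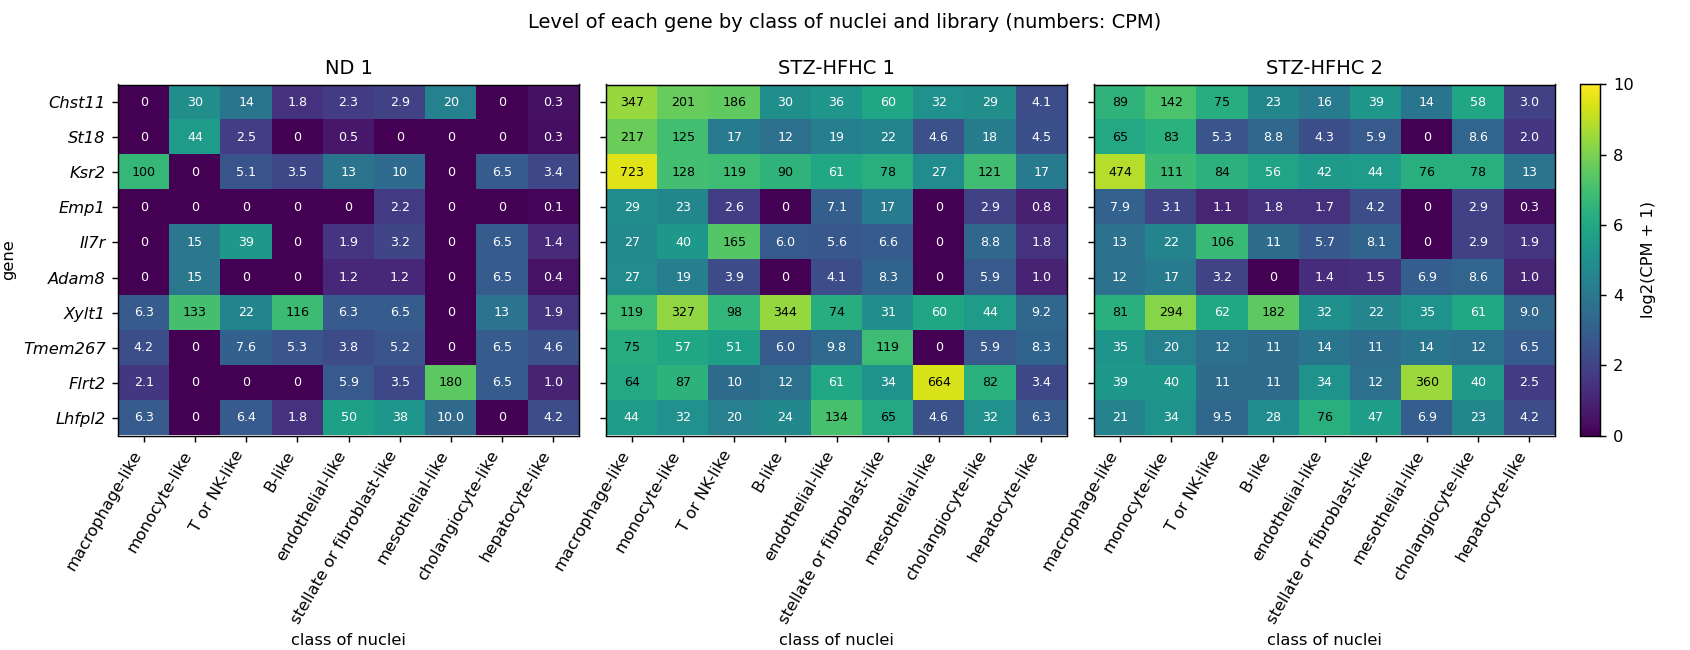
Level of each gene by cell class and library, with CPM printed in each cell and log2(CPM + 1) as its colour, from 0 to 10. Ksr2 is brightest in macrophage-like nuclei, Il7r in T or NK-like nuclei, Flrt2 in mesothelial-like nuclei and Lhfpl2 in endothelial-like nuclei, and the ND column of macrophage-like nuclei is dark for Chst11, St18, Emp1, Il7r and Adam8.

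An unnamed cluster that carried both endothelial and macrophage markers (28, 674 and 838 nuclei) was left out of the classes. It held Chst11 at 19.9, 156 and 69.2 CPM, Ksr2 at 119, 426 and 281 CPM and Lhfpl2 at 139, 101 and 75 CPM. Leaving this cluster out therefore removed UMIs of Chst11, Ksr2 and Lhfpl2 from the class levels.

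The fourth comparison split the myeloid nuclei of the STZ-HFHC mice by Gpnmb, a membrane glycoprotein of LAMs, after thinning each nucleus to 1000 UMIs. A Gpnmb UMI was found in 443 nuclei and not in 1314 in STZ-HFHC 1, and in 189 and not in 1030 in STZ-HFHC 2. In both mice the share of nuclei with a UMI was higher beside Gpnmb, with the 95% exact binomial (Clopper-Pearson) intervals apart, for 9 of the 10 genes. Over all 10280 genes measured this held for 127, or 1.24%. The nuclei are those in which the genes were chosen, and nothing is read from the count. Adam8 was the exception: in STZ-HFHC 2 it was found in 4.76% (2.20 to 8.85) of nuclei with Gpnmb and 1.36% (0.745 to 2.27) of those without.

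Chst11 was found in 23.9% of nuclei with Gpnmb and 7.84% of those without in STZ-HFHC 1, and in 18.0% and 5.44% in STZ-HFHC 2. St18 was found in 29.3% and 9.44%, and in 16.9% and 3.59%. Both genes were thus about 3 times as frequent or more beside Gpnmb in each mouse. Tmem267 was found in 5.87% and 0.989%, and in 5.82% and 0.485%. Emp1 was found in 7.45% and 0.533%, and in 3.17% and 0.388%. Emp1 and Tmem267 were rarely seen in nuclei without Gpnmb. Flrt2 was found in 12.6% and 3.27%, and in 10.1% and 1.84%, and Lhfpl2 in 6.32% and 1.22%, and in 7.41% and 1.46%. Il7r was found in 6.32% and 1.83%, and in 5.82% and 1.55%. Ksr2 was found in 48.1% and 33.4%, and in 41.8% and 25.2%, and was thus frequent on both sides of the split. Xylt1 was found in 19.2% and 11.3%, and in 21.2% and 9.71%, and Adam8 in 4.29% and 1.52% in STZ-HFHC 1. Trem2 itself was found in 2.93% and 1.29%, and in 2.12% and 1.07%, with overlapping intervals.

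**Figure D4:**
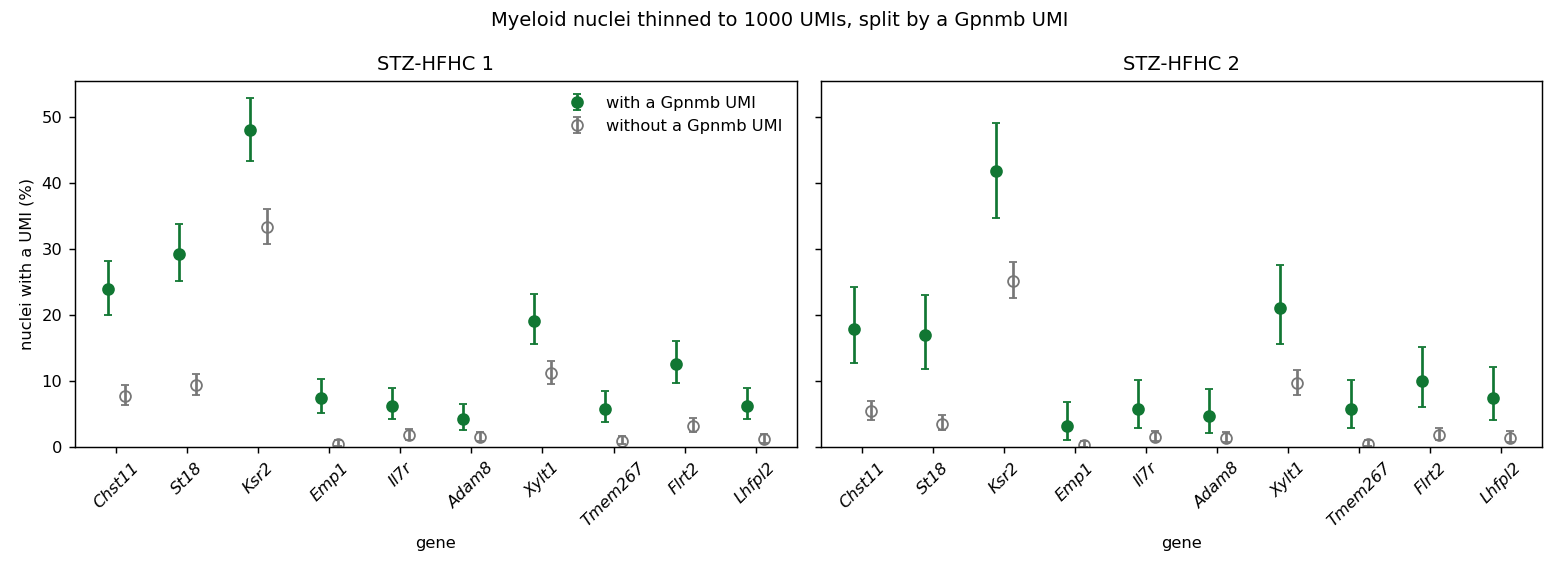
Share of STZ-HFHC myeloid nuclei with a UMI of each gene, at 1000 UMIs per nucleus, among nuclei with and without a Gpnmb UMI, for each mouse, with 95% exact binomial intervals. The share is higher with Gpnmb for each gene in both mice, for example 23.9% against 7.84% for Chst11 in STZ-HFHC 1, and the intervals meet for Adam8 in STZ-HFHC 2.

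When the same split was made with Atp6v0d2, intervals were apart in both mice for 9 of the 10 genes. The exception was Xylt1, at 20.5% (12.4 to 30.8) and 10.8% (9.08 to 12.8) in STZ-HFHC 2. The share over all genes is not given for this split. The genes were chosen in these same nuclei, so nothing is read from the count.

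Counts per nucleus show how the UMIs were spread in the LAM-like nuclei. In STZ-HFHC 1, 908 Chst11 UMIs came from 142 of the 469 nuclei, with up to 67 in 1 nucleus, and in STZ-HFHC 2, 213 came from 62 of 256. Xylt1 gave 406 UMIs in 188 nuclei and 162 in 85. Most LAM-like nuclei held no Chst11 UMI, and 5 nuclei held 30.9% of its UMIs in STZ-HFHC 1 and 31.0% in STZ-HFHC 2. St18 gave 422 UMIs in 160 nuclei and 107 in 51, and Ksr2 656 in 196 and 222 in 76. Il7r gave 95 in 61 nuclei and 27 in 21, and Adam8 63 in 44 and 21 in 15. Il7r and Adam8 thus gave fewer than 2 UMIs on average in the nuclei that had any. Tmem267 was the most uneven: 272 UMIs came from 33 nuclei in STZ-HFHC 1, of which 56.3% from 5 nuclei, and 45 from 12 nuclei in STZ-HFHC 2, of which 75.6% from 5. Emp1 gave 103 UMIs in 42 nuclei of STZ-HFHC 1, Flrt2 211 in 84 and Lhfpl2 147 in 63.

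More of the 10 genes were found together in LAM-like than in Kupffer-like nuclei. At 1000 UMIs per nucleus, at least 2 of them were found in 39.5% (34.8 to 44.4) and 29.5% (23.6 to 35.9) of LAM-like nuclei, beside 21.3% and 11.3% of Kupffer-like nuclei and 0.173% and 0.038% of hepatocyte-like nuclei. At least 3 were found in 20.5% and 10.7% of LAM-like and 5.62% and 2.14% of Kupffer-like nuclei. At least 1, in contrast, was found in 67.6% and 55.4% of LAM-like and 69.7% and 58.8% of Kupffer-like nuclei, and Ksr2 alone was found in 446 of 783 and 234 of 468 Kupffer-like nuclei. In the ND mouse at least 2 were found in 0.556% of macrophage-like nuclei. Within the LAM-like nuclei of STZ-HFHC 1 at that depth, Ksr2 was found in 52 of the 97 nuclei with Chst11, beside 129 of all 420. In STZ-HFHC 2 it was found in 20 of the 42 nuclei with Chst11, beside 45 of all 224. Within the LAM-like nuclei Ksr2 was therefore found more often beside Chst11 than in all of them. Tmem267 was found with Chst11 in 13 of 22 nuclei of STZ-HFHC 1. Il7r (31 nuclei) and Adam8 (17 nuclei) were found together in 0 of 420 nuclei there and in 1 of 224 in STZ-HFHC 2. Genes found in so few nuclei would seldom meet even without any link, so nothing is read from these low counts. Joint detection was not counted over all genes, and the 10 genes were chosen in these nuclei, so the shares above are a description only.

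The genes whose levels were most like each of the 10 were found by the Pearson correlation of log2 levels over 35 groups of class and library (13892 genes). These groups share libraries and depth, so the values are a description. Nearest to Chst11 were Galnt7, Cbl and Rab8b (0.92 each), to St18 Gm21188, Dram1 (0.94 each) and Gpnmb (0.93), and to Ksr2 Kcnk13 and Lgmn (0.95 each) and Cd5l (0.94). Lgmn, a lysosomal protease, and Cd5l, a scavenger-receptor protein of Kupffer cells, are macrophage genes. Nearest to Emp1 were St18 (0.82), Gm43728 (0.81) and Marcks (0.80), to Tmem267 Slfn9 (0.81), Emp1 (0.80) and Gm13710 (0.79), and to Adam8 Amz1 (0.86), Gm47754 and Dram1 (0.84 each). Emp1 and Tmem267 thus had another of the 10 genes among their nearest. For Il7r they were Klrk1 (0.85), a receptor of NK and T cells, Zc3hav1 (0.83) and Coro2a (0.81), for Xylt1 Prkcb (0.92), a kinase of leukocytes, for Flrt2 Ccser1 (0.92), Anxa3 (0.90) and Palm (0.89), and for Lhfpl2 Arhgap31 and Eng (0.91 each) and Hecw2 (0.90), of which Eng is an endothelial receptor. Among pairs of the 10, Chst11 and St18 had 0.85 and Il7r and Flrt2 −0.01.

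The same was done over 13 groups of myeloid subcluster and library (6739 genes). These groups include the ND nuclei of the subcluster named hepatocyte-like, so the values do not describe the STZ-HFHC mice alone. Cd9, a LAM marker, was nearest to Chst11 (0.90) and Tnfrsf11a to St18 (0.94). Mertk, the receptor for apoptotic cells, was nearest to Ksr2 (0.98) and Slc7a11, the cystine transporter, to Il7r (0.89). Sema4d was nearest to Xylt1 (0.97), Atp6v1e1, a subunit of the lysosomal proton pump, to Tmem267 (0.92), Nrp2 to Flrt2 (0.95) and Fnip2 to Lhfpl2 (0.90). Flrt2 also lay near the LAM marker Lgals3 (0.93). Emp1 and Adam8 had under 200 UMIs, the minimum set for the genes compared with, and their nearest were Dmxl1 (0.88) and Mtf2 (0.95).

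The other genes of the pathways were counted next, first between STZ-HFHC and ND macrophage-like nuclei. Of 14 measured genes of chondroitin sulfate synthesis, 4 passed the size limit in the higher direction, with a median log2 difference of 0.97 beside 0.17 over all genes, where 4.5% passed. The counts of these lists include the genes chosen for high levels in these nuclei. Besides Chst11 and Xylt1 they were Csgalnact1, which starts the chondroitin chain, at 5.27, 24.9 and 24.3 CPM in ND, STZ-HFHC 1 and STZ-HFHC 2, and Dse, the epimerase that makes dermatan, at 45.4, 304 and 187 CPM. Not all steps moved this way: Xylt2, the other xylosyltransferase, was at 19.0, 11.0 and 8.97 CPM, and Chsy3, a chain-elongating enzyme, at 384, 298 and 320 CPM. Of 8 proteoglycan core proteins none passed, with a median of 0.74, and Cd44 was at 173, 619 and 467 CPM.

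Of 8 measured ADAM proteases 3 passed, Adam8, Adam23 (34.8, 144 and 143 CPM) and Adam33 (4.22, 19.7 and 20.6 CPM), with a median of 1.18, and Adam8 did not pass with the limit of 3 counts in ND. Of 9 genes of the RAF-MEK-ERK module Ksr2 alone passed, with a median of 0.33, and its paralog Ksr1, at 11.6, 60.03 and 44.1 CPM, did not, since its log2 difference was 2.31 in 1 mouse and 1.87 in the other. Of 4 genes of IL-7 receptor signalling Il7r alone passed, with a median of −0.16. The same held for Flrt2 among 4 genes of FLRT proteins and their partners, for Emp1, though not with the limit of 3 counts, among 2 genes of its family (Pmp22 at 4.22, 17.8 and 11.6 CPM) and for St18, the 1 measured gene of the MYT family. Of 2 LHFPL genes none passed. Outside the chondroitin enzymes and the ADAM proteases, the listed relatives of the 10 genes thus did not pass.

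Between LAM-like and other myeloid nuclei, 2 of 15 genes of chondroitin sulfate synthesis passed, with a median log2 difference of 0.31 beside −0.01 over all genes, where 2.17% passed. Both of them, Chst11 and Xylt1, are among the 10 chosen genes. Among 9 proteoglycan cores 0 were higher and 1 was lower, versican (Vcan), at 10.4 against 34.1 CPM and 1.99 against 33.9 CPM. Of 9 ADAM genes 2 passed, Adam8 and Adam15 (25.6 against 9.15 CPM and 21.9 against 4.15 CPM), with a median of 0.23. Of 9 genes of the RAF-MEK-ERK module none passed, with a median of 0.00. Of 6 genes of IL-7 receptor signalling Il7r alone passed, with a median of 0.11. The common gamma chain Il2rg, with which the IL-7 receptor alpha chain pairs, was at 2.85 against 8.39 CPM and 1.99 against 5.75 CPM. These Il2rg levels rest on 3 and 1 LAM-like UMIs, the ratio intervals (0.0666 to 1.08 and 0.00832 to 2.20) include 1, and the gene did not pass.

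Because nuclear RNA is rich in introns, long genes give more UMIs, and the 10 genes were ranked against each other only per kb of gene. Gene spans ran from 13.631 kb for Adam8 to 373.71 kb for St18. Per kb of span the order in LAM-like nuclei of STZ-HFHC 1 began with Emp1 (4.74 CPM per kb), Adam8 (4.38) and Chst11 (4.09), and in STZ-HFHC 2 with Adam8 (3.07), Il7r (2.21) and Chst11 (2.02). Per kb of exon Chst11 was first in both mice, at 156 and 76.8 CPM per kb. The order of the 10 genes therefore depended on whether the same UMIs were divided by span or by exon length. Whether introns were counted is not given in the sources used here.

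Annotated genes of the feature list overlap 4 of the 10 genes, each on the other strand. Adam8 shares 46 bases with Gm16201, which was at 11.4 and 12 CPM in LAM-like nuclei. The genes that overlap Chst11 (1700025N21Rik), Lhfpl2 (Gm15907) and Tmem267 (3110070M22Rik and Gm48265) had 0 UMIs there. Tmem267 also lies 1918 bases from 4833420G17Rik on the same strand, which was at 87.3 and 85.7 CPM in the LAM-like nuclei of STZ-HFHC 1 and 2, beside 258 and 89.7 CPM for Tmem267, while the neighbour on its other side, Ccl28, was at 1.90 and 1.99 CPM. Whether UMIs of neighbours were counted to Adam8 or Tmem267 was not tested.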

How the data were processed

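Nuclei from 3 frozen livers, each from a separate mouse, were sequenced. The authors deposited raw UMI counts per gene and barcode; the submitters' processing notes name Cell Ranger 7.0.1 and mm10. Whether introns and strand were counted is not given in the sources used here. The matrices held 30989 barcodes, and the study's methods give as its filtered number the one the files hold unfiltered. Here 28336 nuclei were retained, those with 200 to 5000 genes and no more than 5% of UMIs from mitochondrial genes. Normalized counts of 2000 variable genes were reduced to 30 components (15 neighbours) and clustered at resolution 1 with Scanpy 1.11.5 (Python 3.11.15), with 21 genes left out, the genes described here among them. Myeloid nuclei were subclustered with 1000 variable genes, 20 components and resolution 0.5. Clusters were named from marker lists. Doublets were scored with Scrublet and kept.

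Counts were summed per library and class. The levels of a gene were called different where the log2 ratio of CPM, with 0.5 UMI added, was at least 2 (STZ-HFHC and ND) or 1 (LAM-like and other myeloid nuclei) in both STZ-HFHC mice, for genes with at least 50 UMIs; a count of 0 allows up to 3. Intervals are 95% exact Poisson or binomial intervals (SciPy 1.17.1). No test was made. The scripts were tested on simulated data. Named beside the 10 genes were, by rule, Mmp12, Atp6v0d2, Gpnmb and Trem2, the 3 genes most like each in level (Pearson correlation of log2(CPM + 5), genes with at least 200 UMIs, groups of at least 20 nuclei and 100000 UMIs), the leading 3 genes of a subcluster, neighbouring genes and the members of pathway lists past the limit. Cd9, Spp1, Lgals3, Cd36, Cd63, Ctsl, Plin2, Tfec, Xylt2, Chsy3, Cd44, Ksr1, Pmp22 and Il2rg were named after their values were seen. The 10 genes and all lists were chosen with earlier results of these data known. Alternatives were other nucleus filters, removal of doublets, other clustering resolutions, the genes kept in the clustering, nuclei chosen by markers without clustering, no thinning, another scaling and leaving out each STZ-HFHC mouse.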

Additional observations from a re-analysis of the deposited data

How the results depend on the processing

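The diet comparison rests on 1 ND mouse with 231 macrophage-like nuclei, in which 5 of the 10 genes had no UMI, and its differences cover counting error only. No paired analysis was made, because the 3 libraries come from separate mice and the labels match no ND mouse to an STZ-HFHC mouse. The results come from no test. Of the 10 genes, 9 were higher in STZ-HFHC than in ND macrophage-like nuclei. This count was 2 with no upper limits on genes and mitochondrial share, both genes having no ND UMI there. It was 4 at resolution 0.5. It was 5 with nuclei chosen by at least 2 macrophage markers, most of which were not macrophage-like by clustering. Under the remaining settings it was 8 to 10, with 8 when UMIs were scaled by macrophage-marker UMIs, a setting chosen after seeing the data, under which Ksr2 (log2 difference 1.91) no longer passed. It was 10 without STZ-HFHC 2 and 6 without STZ-HFHC 1, where Emp1, Il7r and Adam8 (log2 differences 3.93, 4.61 and 4.57) had under 50 UMIs and so were not counted. With no upper limits the log2 difference reversed for Emp1 (-0.0978, with 0 ND UMIs) and Lhfpl2 (-1.51, with 2 ND UMIs) among 31242 ND UMIs, a depth that can show few differences. The count higher in LAM-like nuclei was 9 and stayed at 9 or 10 under the settings run, with other genes making up the 9 in 2 of them as given above, and ranged from 7 to 9 when a mouse was left out: without STZ-HFHC 1 Emp1 and Adam8 (log2 differences 1.13 and 2.23) had under 50 UMIs. At subcluster resolution 0.3 no subcluster was named LAM-like, so no value was had. The count highest in macrophage-like nuclei was 2, and 5 without the highest doublet scores, 7 with the genes kept in the clustering and 5 at resolution 0.5, and 3 to 5 when a mouse was left out. The count more frequent beside Gpnmb was 9, and 7 to 10 under the settings run, 9 to 10 when a mouse was left out. Over all genes the diet count of 458 became 162, 228 and 219 with no upper limits, at resolution 0.5 and with macrophage-marker scaling, 803 from 10 UMIs on, and 261 or 662 without STZ-HFHC 1 or 2. The LAM-like count of 232 became 456 with no upper limits and 469 from 10 UMIs on. The macrophage-like count of 447 became 793 without the highest doublet scores, 1094 with the genes kept in the clustering, 1195 at resolution 0.5, and 867 or 892 when a mouse was left out. The Gpnmb count of 127 became 81 without the highest doublet scores, 712 without thinning, and 199 or 265 when a mouse was left out. Apart from the settings that changed which nuclei or mice were counted, the cause of these shifts was not tested. Of the log2 differences of single genes under the alternatives, 132 moved by less than the spread between the mice, 66 moved by more and 2 reversed.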
